A study of Mus musculus with 6 samples.

Results

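The serpins were described here as a gene family in adult mouse hearts, with YAP5SA set against Control. Members were the features whose symbol has the form Serpin, a letter from a to i, a number and at most 1 further letter. The rule found 33 of 22281 features: 12 of clade a, 13 of clade b and 8 of other clades. The 32 described here held 106064 of 50784032 UMIs (unique molecular identifiers, each taken as 1 captured transcript), or 0.209%. Of these 32, 10 reached 1000 UMIs and 3 had fewer than 10. The symbol Serpina3e-ps and the joined names Gm28577-Serpina9 and Serpinb10-Serpinb2 lie outside the rule, but for the tests the UMIs of a joined name were added to those of the members it names.

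Serpins share a fold with an exposed reactive loop that most members offer to a protease as bait. Cleavage of the loop springs the fold open and traps the protease in a covalent, inactive complex. Clade a members and the antithrombin, heparin cofactor and C1-inhibitor genes mostly encode secreted proteins, clade b members lack a classical signal peptide and act mostly inside cells, Serpine2 encodes protease nexin 1, a thrombin inhibitor, and Serpinh1 encodes HSP47, a collagen chaperone of the endoplasmic reticulum that inhibits no protease. In the heart, HSP47 is known for its part in collagen secretion by fibroblasts.

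YAP5SA is a form of the Hippo pathway effector YAP that the Lats kinases cannot phosphorylate. Control animals carried Myh6-MCM, and YAP5SA animals carried Yap5SA+/tg with Myh6-MCM. MCM is a tamoxifen-dependent Cre, here under the Myh6 promoter of cardiomyocytes, and all animals were adult and received tamoxifen, the Controls too, so the Cre and the drug do not separate the groups. For each genotype 2 Drop-seq libraries were made from dissociated cardiac tissue and 1 from cells enriched for cardiomyocytes. They are called Control enriched, Control tissue-2 and Control tissue-3, and YAP5SA enriched, YAP5SA tissue-1 and YAP5SA tissue-2. The labels do not say whether the libraries came from separate animals, so the p-values measure the spread between these libraries, which may be technical.

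The libraries held 1405 to 5860 cells and 3382656 to 13483791 UMIs, and 10 cell barcodes occurred in more than 1 library. The authors' 17 clusters were used by name, with CM1, CM2, CM3 and YAP5SAcm pooled as cardiomyocytes, CF1 to CF4 as fibroblasts and Mac1 to Mac4 as macrophages. In the pooled cardiomyocytes the sum of 8 cardiomyocyte markers was 52937 to 81431 CPM (UMIs of the gene per 1000000 UMIs of the class) in the Control libraries and 28177 to 36661 CPM in the YAP5SA libraries, with none of the 8 at 0. Yap1 stood at 15.3, 17.9 and 14.8 CPM in Control cardiomyocytes and at 24.6, 52.9 and 46.0 CPM in YAP5SA cardiomyocytes. The sources used here do not say whether the 3′ tags counted as Yap1 include the transgene. Of the Control libraries, tissue-2 stood apart for several serpins, and its values are given with each result that rests on it.

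In cardiomyocytes 3 of the serpins described rose in YAP5SA and none fell: the clade b genes Serpinb6b, Serpinb9b and Serpinb9, the last an inhibitor of granzyme B. In order of fold they rose by 6.52 (Serpinb9b), 1.56 (Serpinb6b) and 1.33 (Serpinb9) on the log2 scale. The 3 were among 14 members that passed the filter on low counts. Over all 10889 genes tested the same call was made for 26.6% in either direction, for 13.9% upward and for 12.7% downward, so the count of members called lies near the background of this comparison. The median log2 fold change was 1.07 for the 14 members and 0.04 for all genes tested. A member that passed the filter through its YAP5SA libraries alone had to differ, so this median is a description.

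Serpinb6b, Serpinb9 and Serpinb9b follow each other directly among the protein-coding genes of RefSeq (GRCm38.p6). They lie within an unbroken run of members on chromosome 13, from Serpinb1a and Serpinb1c to Serpinb1b. The members Serpinb6c and Serpinb6a follow further along, after protein-coding genes that are not among the members described. The promoters of Serpinb6b, Serpinb9 and Serpinb9b are shown because these neighbours rose together. Each window holds the 250 bases before the annotated start, from RefSeq, build GRCm38.p6, plus strand, 5′ to 3′. The windows lie at chr13:32965011-32965260 for Serpinb6b, chr13:33004291-33004540 for Serpinb9 and chr13:33027164-33027413 for Serpinb9b. Capitals mark the stretches of at least 12 bases that the windows of Serpinb9 and Serpinb9b share exactly.
Serpinb6b: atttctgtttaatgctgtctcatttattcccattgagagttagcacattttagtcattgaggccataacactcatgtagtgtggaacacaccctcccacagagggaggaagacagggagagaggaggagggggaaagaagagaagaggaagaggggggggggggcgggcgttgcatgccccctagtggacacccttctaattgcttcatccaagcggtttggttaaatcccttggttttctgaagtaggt
Serpinb9: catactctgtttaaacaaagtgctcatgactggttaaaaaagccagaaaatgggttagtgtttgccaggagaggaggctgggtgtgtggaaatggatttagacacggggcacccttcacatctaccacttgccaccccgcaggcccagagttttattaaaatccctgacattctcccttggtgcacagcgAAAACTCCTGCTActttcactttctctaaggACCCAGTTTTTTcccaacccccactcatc
Serpinb9b: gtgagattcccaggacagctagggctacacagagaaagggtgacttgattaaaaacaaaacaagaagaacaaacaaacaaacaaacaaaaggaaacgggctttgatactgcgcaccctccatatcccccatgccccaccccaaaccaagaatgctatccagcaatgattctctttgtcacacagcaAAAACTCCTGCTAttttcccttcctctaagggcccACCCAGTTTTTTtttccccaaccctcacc

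The windows of Serpinb9 and Serpinb9b share 2 such stretches, 25 bases in all, close to the annotated start. Each window was searched on both strands for GGAATG, the core that TEAD factors, the DNA-binding partners of YAP, are known to bind, and for TGANTCA, the AP-1 motif. None of the 3 windows holds a match to either, which says only that these letters do not occur in these 250 bases. Among all 32851 RefSeq promoters of that length, 12.6% hold GGAATG and 6.75% hold TGANTCA. Of the 31 promoters found for 26 members, 5 hold GGAATG and 8 hold TGANTCA.

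Values by library below are scaled CPM, that is CPM after the TMM scaling used in the test, in the order of libraries given above. Serpinb9b, a close copy of Serpinb9, stood at 0, 10.9 and 0 in Control cardiomyocytes and at 200.0, 293.5 and 326.9 in YAP5SA cardiomyocytes. All 33 Control UMIs came from tissue-2, and the lowest YAP5SA library lay far above it. The log2 fold change was 6.52 (SE 1.46, n = 3 libraries per genotype, edgeR adjusted p = 0.0234). Serpinb9b passed the filter on low counts through its YAP5SA libraries, since only tissue-2 of the Control libraries held it, so its call is a description. Without Control tissue-2 every Control library is at 0, and the fitted fold change is then no measure of size.

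Serpinb6b, an intracellular clade b inhibitor, stood at 92.4, 138.1 and 93.7 scaled CPM in Control cardiomyocytes and at 328.2, 326.1 and 290.8 in YAP5SA cardiomyocytes. The YAP5SA libraries lay close together, and the groups did not overlap. Serpinb6b rose by 1.56 on the log2 scale (SE 0.32, n = 3 libraries per genotype, edgeR adjusted p = 0.0151), from 108.1 ± 26.0 to 315.0 ± 21.0 (SD).

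Serpinb9 was low throughout, at 8.90, 9.23 and 12.5 scaled CPM in Control cardiomyocytes and at 30.8, 21.3 and 25.5 in YAP5SA cardiomyocytes. The groups did not overlap, and no Control library stood apart. The log2 fold change was 1.33 (SE 0.31, n = 3 libraries per genotype, edgeR adjusted p = 0.0223).

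**Figure D1:**
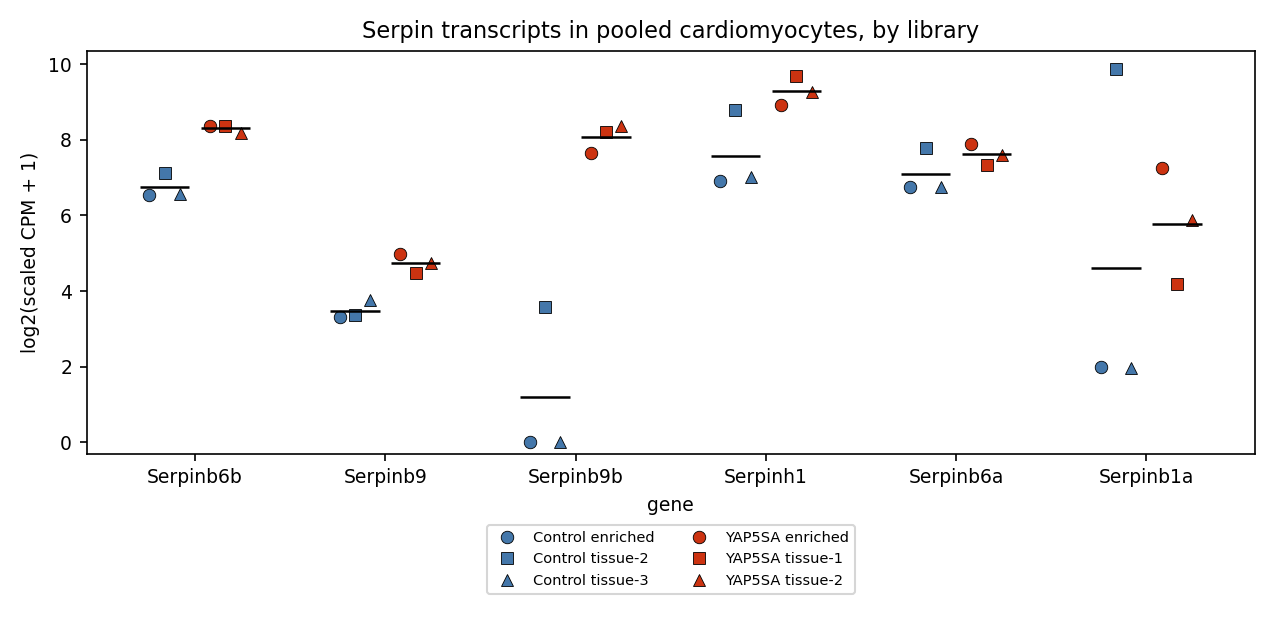
Scaled CPM (log2 of the value plus 1, vertical axis) of 6 serpins in pooled cardiomyocytes; each point is 1 library, blue Control and red YAP5SA, and black lines are means of the log values. Marker shapes name libraries and do not pair them. Serpinb6b, Serpinb9, Serpinb9b and Serpinh1 do not overlap between the genotypes, while 1 Control library, tissue-2, is the highest point of Serpinb1a.

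The calls were lost in most fits with a single library left out. The fits hold a term for preparation, tissue or enriched. When either enriched library was left out, this term took up the other, so both fits compared the tissue libraries alone. None of the 3 members stayed under an adjusted p of 0.05 when Control enriched, YAP5SA enriched, YAP5SA tissue-1 or YAP5SA tissue-2 was left out. The edgeR adjusted p was highest at 0.0930 for Serpinb6b, 0.116 for Serpinb9 and 0.110 for Serpinb9b. Their log2 fold changes in those fits ran from 1.38 to 1.67 for Serpinb6b, 1.07 to 1.51 for Serpinb9 and 5.88 to 6.90 for Serpinb9b. Without Control tissue-2 the count was 10 members, all higher. The scaling matters as well: on library totals alone the median gene was 0.88 higher in YAP5SA on the log2 scale, and 6 members were called, all higher. The counts over all genes also moved in such fits, as given in the closing section. The 10 and the 6 are therefore no result about the members.

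Serpinh1, the collagen chaperone, was the most abundant member in cardiomyocytes. It stood at 119.6, 437.5 and 128.4 scaled CPM in the Control libraries and at 487.7, 821.8 and 616.6 in the YAP5SA libraries. The groups did not overlap, but Control tissue-2 came close to YAP5SA enriched. Its log2 fold change of 1.58 did not pass (SE 0.51, edgeR adjusted p = 0.0578), and it passed without Control tissue-2 (2.27, edgeR adjusted p = 0.0015). That fit leaves out the Control library with the highest Serpinh1 value, and its calls are no result about the members, as given above.

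The other 10 members tested did not pass, and their log2 fold changes lay between -2.01 and 3.10. The highest belonged to Serpina9, which stood at 0, 1.65 and 0 scaled CPM against 4.56, 3.99 and 4.99 (SE 1.08, edgeR adjusted p = 0.0707). In the YAP5SA tissue libraries all its UMIs came from the joined name Gm28577-Serpina9. The lowest belonged to Serpinb1a, an inhibitor of neutrophil proteases, which stood at 2.97, 929.7 and 2.91 scaled CPM in the Control libraries and at 151.0, 17.3 and 57.7 in the YAP5SA libraries. Of 2840 Control UMIs of Serpinb1a, 2820 came from tissue-2, so its estimate rests on 1 library (SE 3.31, edgeR adjusted p = 0.688). Serpinb6a, a broadly expressed intracellular inhibitor and close copy of Serpinb6b, stood at 105.8, 220.6 and 107.4 scaled CPM against 238.0, 160.4 and 193.1. Its groups overlapped, and the log2 fold change was 0.47 (SE 0.40, edgeR adjusted p = 0.418). Over the 14 members tested, 6 did not overlap between the genotypes, Serpina9 with its joined name among them, against 48.2% of all genes tested.

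The Serpinb1, Serpinb6, Serpinb9, Serpina1 and Serpina3 genes are groups of close copies, and how the authors treated reads that match several copies is not given in the sources used here. The division of UMIs within each group is therefore uncertain, including that between Serpinb9 and Serpinb9b and between Serpinb6a and Serpinb6b.

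By cluster, Serpinb9b was concentrated in CM2 and YAP5SAcm. In unscaled CPM it stood at 0, 8.5 and 0 in Control CM2 cells and at 398.5, 558.7 and 740.3 in YAP5SA CM2 cells. In YAP5SAcm cells it stood at 0, 41.0 and 0 against 380.8, 551.0 and 595.3. In CM1 the same libraries gave only 0, 9.5 and 0 CPM against 7.7, 12.1 and 25.2, and in CM3 all Control libraries were at 0 against 29.2, 19.7 and 0.

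Within the single clusters 4 calls were made, all higher in YAP5SA, and all were of Serpinb9b or Serpinb6b in CM2 or YAP5SAcm. In CM2 the call was made for 2 of 4 members tested, beside 4.54% of 2048 genes. In YAP5SAcm it was made for 2 of 8 members tested, beside 7.60% of 6069 genes. In CM1 and CM3 no member of 9 and 5 tested was called by edgeR (1 in each was under 0.05 unadjusted), beside 0.0244% and 0.393% of all genes. In the 11 other clusters fitted no member was called either, with at most 3 members under 0.05 unadjusted in a cluster, and DESeq2 made 5 calls over all clusters. The unadjusted counts and the DESeq2 count have no share of all genes beside them and are no result about the members. In CF1 to CF4 the share of all genes called was 0% apart from CF4, where it was 2.56%. It was 0.0712% in Mac1, 0.0264% in Mac2, 0.0102% in Mac4, 0.028% in the monocyte cluster Mo, and 0% in the endocardial (EndoC), epicardial (EpiC) and smooth muscle (SMC) clusters. Serpinb9b passed in CM2 (7.85, edgeR adjusted p = 0.0020) and in YAP5SAcm (4.41, edgeR adjusted p = 6.4e-05). In both clusters it passed the filter on low counts through its YAP5SA libraries, so these calls are a description. In CM2 the Control libraries held 1 UMI of Serpinb9b and the YAP5SA libraries 203, a ratio of 399 with an exact 95% interval of 70.8 to 15841 that covers counting error only. Serpinb6b stood at 97.6, 145.5 and 62.6 scaled CPM in Control CM2 cells and at 458.2, 450.7 and 518.2 in YAP5SA CM2 cells, and rose by 2.39 on the log2 scale (edgeR adjusted p = 0.0337). In YAP5SAcm it stood at 0, 266.4 and 88.8 against 523.4, 486.8 and 424.2, and rose by 1.87 (edgeR adjusted p = 0.0460). The groups did not overlap in either cluster. Leaving out YAP5SA tissue-1 or YAP5SA tissue-2 left 1 call over all clusters, and leaving out Control tissue-2 gave 26, of which 6 were lower. The share of all genes called in those fits is not given here, so these counts are no result about the serpins. These genes also took part in the clustering, and the YAP5SAcm cluster held 16, 50 and 33 Control cells against 481, 212 and 203 YAP5SA cells. When all cells of YAP5SAcm were left out of the pooled cardiomyocytes, 0 members were called and the log2 fold changes were 5.03 for Serpinb9b, 1.07 for Serpinb6b and 0.75 for Serpinb9 (edgeR adjusted p from 0.170 to 0.563). In that fit 17 genes were called in all.

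**Figure D2:**
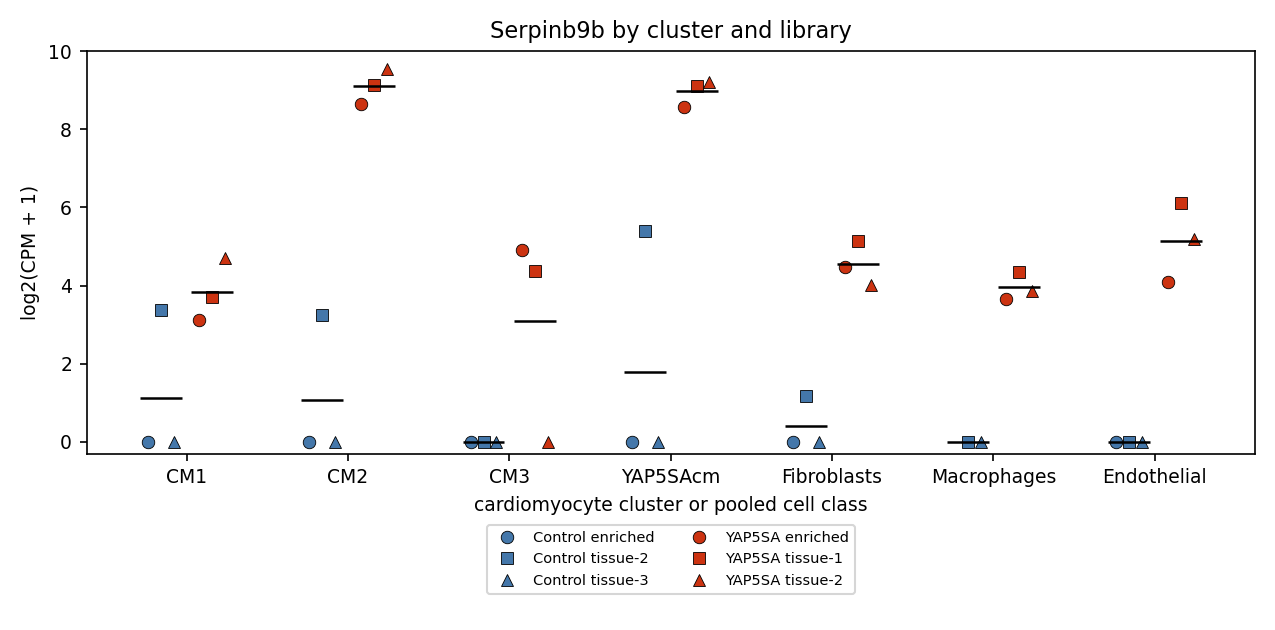
Serpinb9b in unscaled CPM (log2 of the value plus 1, vertical axis) by cardiomyocyte cluster and pooled class; each point is 1 library with at least 10 cells, blue Control and red YAP5SA, and black lines are means of the log values; marker shapes do not pair libraries. YAP5SA libraries lie between 380.8 and 740.3 CPM in CM2 and YAP5SAcm, and at 68.3 CPM or lower in every other group plotted.

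The share of cardiomyocytes with a UMI was compared after thinning each cell to 1000 UMIs, leaving out shallower cells. For Serpinb9b it was 0%, 1.25% and 0% in the Control libraries and 17.3%, 21.5% and 28.6% in the YAP5SA libraries. Unthinned, the shares were 0%, 2.78% and 0% against 31.9%, 32.9% and 48.9%. In YAP5SA macrophages, where the Myh6 promoter is not active, the thinned Serpinb9b share was 0.713%, 2.47% and 1.16%, at a median depth of 1213 to 1830 UMIs per cell against 1876 to 2698 in YAP5SA cardiomyocytes. Most cardiomyocytes of these libraries thus held no Serpinb9b UMI at this depth, and the share with one lay above that of macrophages in each library.

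Serpinb6b was found in 5.05%, 10.9% and 6.06% of thinned Control cardiomyocytes and in 33.9%, 30.2% and 29.8% of thinned YAP5SA cardiomyocytes. Every YAP5SA library lay above every Control library.

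Markers of other cell types were also summed in the cardiomyocyte class. The sum of 10 fibroblast markers was 142 to 661 CPM in the Control libraries and 615 to 804 in the YAP5SA libraries, with none of the 10 at 0. These ranges overlapped, and 0 of 9 fibroblast markers tested were called (edgeR). The sum of 12 macrophage markers was 29.5 to 292 CPM against 400 to 1002, with 2 at 0 in Control enriched, and 2 of 10 tested rose.

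Smooth muscle and pericyte markers summed to 158 to 347 CPM against 3067 to 3554, with none of 8 at 0. Of the 8, 3 rose and 1 fell, with a median log2 fold change of 1.02, so the sum rests on some of its members. Epicardial markers summed to 2.06 to 4.51 CPM against 37.2 to 73.6, with up to 3 of 7 at 0 in a library, and 3 of 3 tested rose. Endocardial markers summed to 9.37 to 19.0 CPM against 45.3 to 57.1, with up to 1 of 5 at 0 in a library, and 1 of 2 tested rose. Endothelial markers summed to 677 to 1514 CPM against 1063 to 1620, and 0 of 8 were called. The part of these cell types in the serpin results was not tested.

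When the 2578 of 4446 cardiomyocytes that held a UMI of any of 22 fibroblast or macrophage markers were left out, 3 members were called, all higher. The cells left were uneven: 899 of 1068, 137 of 576 and 320 of 1173 in the Control libraries, and 406 of 1004, 79 of 343 and 27 of 282 in the YAP5SA libraries. Serpinb9b stood at 0 CPM in each Control library of the remaining cells and at 256.5, 249.1 and 375.1 CPM in the YAP5SA libraries, on 226, 35 and 16 UMIs. It passed the filter there through its YAP5SA libraries alone and had to differ, so its call is a description. The share of all genes called in this fit is not given here, so the 3 calls are no result about the members. Serpinb6b and Serpinh1 were also called, at log2 fold changes of 2.07 (edgeR adjusted p = 0.0068) and 1.83 (edgeR adjusted p = 0.0267). Serpinb9 did not pass the filter on low counts in these cells.

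Partners of the serpins were taken from 4 lists. The collagen folding list, the setting in which HSP47 works, had 29 genes, of which 27 were tested in cardiomyocytes. Of these 9 rose and none fell, with a median log2 fold change of 1.09 against 0.04 for all genes. Plod2, a collagen lysyl hydroxylase, rose from 42.0 ± 18.2 to 391.1 ± 83.5 scaled CPM (SD, n = 3, log2 fold change 3.22, edgeR adjusted p = 0.0040). Col5a1, a fibrillar collagen chain, rose by 2.24 (edgeR adjusted p = 0.0171), and P4ha1, a prolyl hydroxylase subunit, by 1.66 (edgeR adjusted p = 0.0183). The serpin Serpinh1 itself did not pass.

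In the list of plasminogen activation and coagulation 12 of 25 genes were tested, 4 rose and none fell, with a median of 1.56. Thbs1 (thrombospondin 1, a matrix protein) rose from 5.59 ± 4.32 to 198.9 ± 106.7 scaled CPM (SD, n = 3, log2 fold change 5.31, edgeR adjusted p = 0.0021). F2r (the thrombin receptor PAR1) rose by 4.06 (edgeR adjusted p = 0.0021), and Plaur (the urokinase receptor) by 2.91 (edgeR adjusted p = 0.0274).

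Among proteases on which serpins act, 9 of 25 were tested, 3 rose and 1 fell, with a median of 1.07. C1ra, a complement protease that the Serping1 product inhibits, rose by 4.28 (edgeR adjusted p = 0.0051) and Furin, a proprotein convertase, by 1.28 (edgeR adjusted p = 0.0344). Ctsh, a lysosomal cysteine protease, fell by 1.63 (edgeR adjusted p = 0.0246).

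Of 17 receptors of serpins and their complexes 14 were tested, 4 rose and none fell, with a median of 1.10. Lrp2, an endocytic receptor, held 0 UMIs in the Control libraries and 88 in the YAP5SA libraries, at least 59.1-fold higher when 3 counts over all Control libraries are taken as the limit (edgeR adjusted p = 0.0069). It passed the filter through its YAP5SA libraries alone and had to differ, so its call is a description. Itgav, the integrin alpha v chain of vitronectin receptors, rose by 2.18 (edgeR adjusted p = 0.0082), and Sdc1, a heparan sulfate proteoglycan, by 2.95 (edgeR adjusted p = 0.0119). Read against the 26.6% of all genes called, the 4 lists gave 9 of 27, 4 of 12, 4 of 9 and 4 of 14.

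In fibroblasts Serpinb9b alone was called higher in YAP5SA, and no member was called lower. Of 13 members tested, 1 was called, against 2.23% of 10726 genes called in either direction, 1.45% upward and 0.774% downward. The median log2 fold change was 0.17 for the members and 0.09 for all genes. Control enriched held only 10 fibroblasts with 8952 UMIs in all, so each UMI weighs heavily in its CPM values. In these cells the cardiomyocyte markers summed to 31725 CPM, against 596 to 6096 in the other libraries. Without Control enriched 0 members and 0 genes were called. That fit compared the tissue libraries alone, since the preparation term took up YAP5SA enriched.

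Fibroblast Serpinb9b stood at 0, 1.39 and 0 scaled CPM in the Control libraries and at 24.6, 36.2 and 17.3 in the YAP5SA libraries. The Control libraries held 3 UMIs and the YAP5SA libraries 180, a ratio of 19.8 with an exact 95% interval of 6.66 to 96.8. The log2 fold change was 4.43 (SE 0.80, edgeR adjusted p = 4.2e-05). Serpinb9b passed the filter on low counts through its YAP5SA libraries alone and had to differ, so its call is a description. The call was lost without Control enriched (edgeR adjusted p = 0.538), YAP5SA enriched (edgeR adjusted p = 0.512) or YAP5SA tissue-1 (edgeR adjusted p = 0.140). The fits without an enriched library compared the tissue libraries alone.

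Fibroblast Serpinb9b was also set beside the cardiomyocyte markers of the same libraries. In the YAP5SA libraries it was 8.95%, 8.21% and 3.27% of the level in cardiomyocytes of the same library (enriched, tissue-1 and tissue-2), and the sum of the cardiomyocyte markers was 5.69%, 6.14% and 2.12% of its level there. In macrophages the corresponding shares were 4.94%, 4.66% and 2.91% for Serpinb9b and 6.37%, 6.14% and 2.57% for the cardiomyocyte markers. In endothelial cells they were 6.77%, 16.4% and 7.61% for Serpinb9b and 9.09%, 10.3% and 4.6% for the cardiomyocyte markers. The part of free cardiomyocyte RNA in these values was not tested.

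Among the most abundant members of fibroblasts were Serpinh1, Serping1 (the C1 inhibitor of complement) and Serpine2 (protease nexin 1). Serpinh1 stood at 343.1, 4107 and 823.1 scaled CPM in the Control libraries and at 2430, 3266 and 2128 in the YAP5SA libraries. Serping1 stood at 686.3, 470.5 and 2047 against 968.5, 826.6 and 1223. Serpine2 stood at 114.4, 454.7 and 719.1 against 816.7, 685.3 and 1206. The first Control value of each, from Control enriched with its 8952 UMIs, rests on very few UMIs.

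For all 3 the groups overlapped. A Control library was the highest for Serpinh1 (tissue-2) and Serping1 (tissue-3), and for Serpine2 Control tissue-3 lay above YAP5SA tissue-1. Their log2 fold changes were 0.87, -0.06 and 1.16, with an edgeR adjusted p of 0.9997 each. The remaining members lay between -0.55 and 1.33. Serpina3n, an acute-phase protease inhibitor, had the estimate of 1.33 (SE 0.80, edgeR adjusted p = 0.875) from 0, 909.4 and 112.9 scaled CPM against 979.3, 559.5 and 929.4. Control tissue-2 lay within the YAP5SA range, and without it the value was 3.18 (edgeR adjusted p = 0.0114). That fit rests on Control tissue-3 and on the 0 of Control enriched, where 8952 UMIs could miss a low level.

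In macrophages 12 members were tested in 5 libraries, since Control enriched held none of these cells, and none was called. YAP5SA enriched was the only enriched library there, so the preparation term took it up and the genotype effect rests on the tissue libraries. No gene at all was called (0% of 11771), and DESeq2 also called 0 members. At an unadjusted 0.05, 5 members passed, but the share of all genes at that threshold is not given. That count is therefore no result about the members. The highest members were Serpinb6a, Serpinh1 and Serpinb8, an intracellular inhibitor of furin-like proteases. Serpinb6a stood at 235.9 and 271.8 scaled CPM in Control tissue-2 and tissue-3 and at 271.2, 230.5 and 232.9 in the YAP5SA libraries. Serpinb8 stood at 48.4 and 46.4 against 49.8, 49.8 and 49.0. The log2 fold changes were -0.12 (SE 0.34) and 0.05 (SE 0.32). For Serpinb6a the groups overlapped, and for Serpinb8 every YAP5SA library lay just above both Control libraries. In all, 7 of the 12 did not overlap, against 35.8% of all genes tested, in a design of 2 against 3 libraries.

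Macrophage Serpinh1 stood at 68.0 and 119.3 scaled CPM against 37.1, 56.6 and 36.3, with both Control libraries above all YAP5SA libraries (log2 fold change -0.89, SE 0.39, edgeR adjusted p = 0.489). Serpinb9b held 0 UMIs in Control macrophages and 179 in YAP5SA macrophages, at least 4.02-fold higher by the same limit, and did not pass (edgeR adjusted p = 0.168). Serping1 stood at 4.54 and 232.0 against 8.89, 6.50 and 10.5, and only Control tissue-3 was high. That library's macrophages, 148 cells, also had the highest sums of fibroblast markers, 5616 CPM against 321 to 659 in the others, of cardiomyocyte markers, 8582 CPM against 724 to 2816, and of endothelial markers, 2763 CPM against 593 to 750. Their part in the Serping1 and Serpinh1 values of that library was not tested, nor in the differences from cardiomyocytes given below.

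In endothelial cells 9 members were tested and none was called, as was no gene among 5354 (0%). At an unadjusted 0.05, 1 member passed, without the share of all genes beside it, and DESeq2 called 0. The highest members were Serpinh1, Serpine2 and Serping1. Serpinh1 stood at 313.9, 1015 and 388.1 scaled CPM against 594.8, 997.8 and 465.5, Serpine2 at 49.7, 493.1 and 99.7 against 199.0, 202.8 and 422.7, and Serping1 at 102.0, 217.5 and 230.0 against 221.4, 162.2 and 137.7. All 3 overlapped between the genotypes, and Control tissue-2 gave the highest value of Serpinh1 and of Serpine2.

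**Figure D3:**
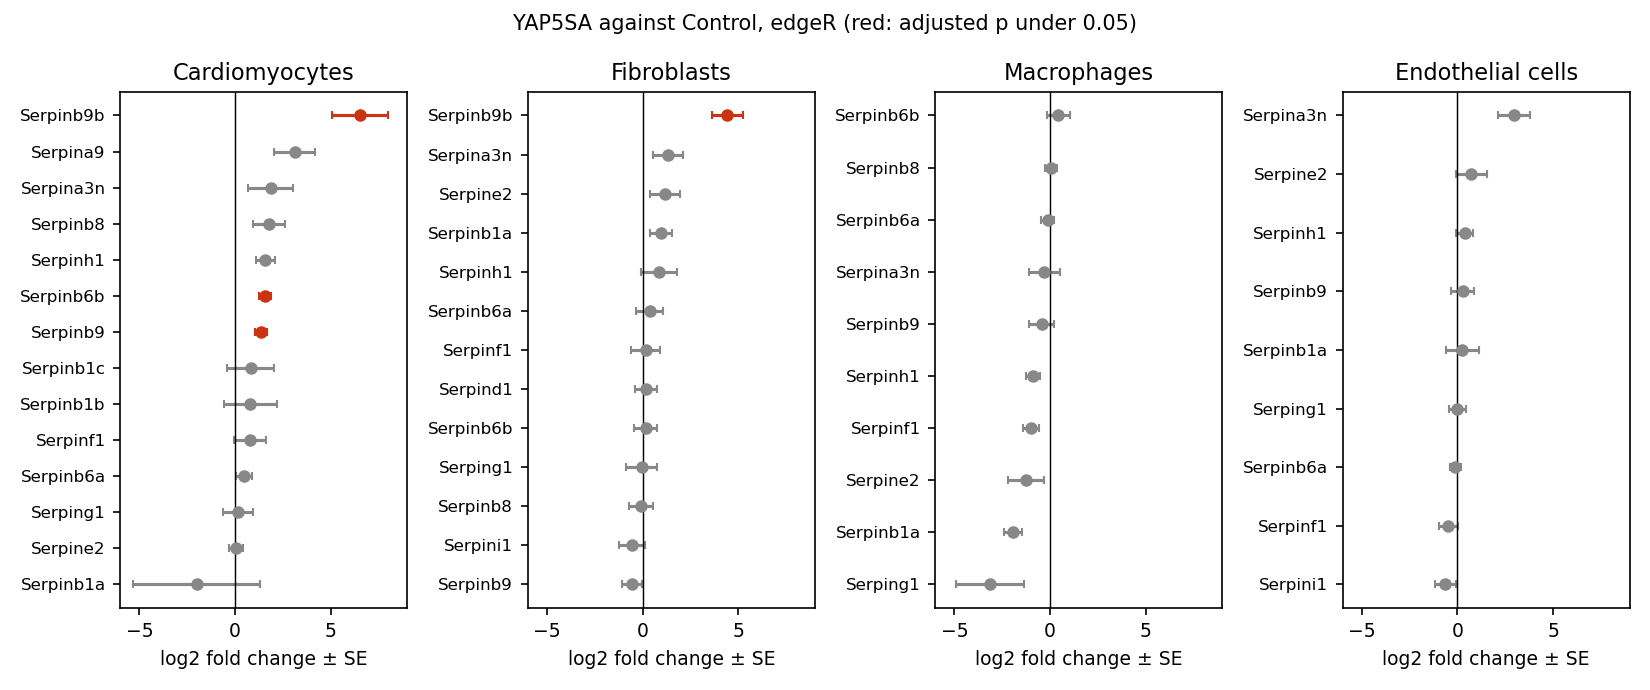
Log2 fold change of YAP5SA against Control (horizontal axis, bars are SE) for each serpin tested in 4 classes; red points passed an edgeR adjusted p of 0.05. Members at 0 in every library of a genotype are left out, which concerns Serpinb9b and Serpinb10 with Serpinb2 in macrophages. In cardiomyocytes 13 of 14 estimates are above 0, with Serpinb1a below, and 3 are red; in fibroblasts 1 is red.

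The difference between classes was tested directly in a fit with the library as a block. Serpinb9 had a larger genotype effect in cardiomyocytes than in fibroblasts, by 1.78 on the log2 scale (SE 0.51, edgeR adjusted p = 0.0072). Serpinh1 had a larger effect in cardiomyocytes than in macrophages, by 2.14 (SE 0.53, edgeR adjusted p = 0.0073), and than in endothelial cells, by 1.22 (SE 0.42, edgeR adjusted p = 0.0498).

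For Serping1 the signed effect in cardiomyocytes lay above that in macrophages, by 2.74 (SE 0.60, edgeR adjusted p = 0.0028). Its own log2 fold change was 0.13 in cardiomyocytes and -3.13 in macrophages, and neither was called. No such difference was called for Serpinb6b or Serpinb9b, for which the difference from fibroblasts was 0.74 (SE 0.66) and 0.56 (SE 1.32). These counts are 1, 2 and 1 members of 16, 15 and 11 tested, beside 17.4%, 12.9% and 14.2% of all genes. With 1 library left out, the count fell to 0 for fibroblasts without YAP5SA tissue-2, and for macrophages without Control tissue-3. For endothelial cells it fell to 0 without Control enriched, Control tissue-3, YAP5SA tissue-1 or YAP5SA tissue-2.

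The members differed widely in where their UMIs lay over the whole series. Fibroblasts held 91.6% of the Serpinf1 UMIs (Serpinf1 encodes the angiogenesis inhibitor PEDF), 88.0% of Serpina3n, 87.6% of Serpine2, 75.0% of Serping1 and 73.4% of Serpinh1. Cardiomyocytes held 88.3% of Serpinb6b, 83.4% of Serpinb9b and 72.0% of Serpinb1a, the last largely from 1 Control library. Macrophages held 78.6% of Serpinb8. Serpini1, which encodes neuroserpin, had 40.7% in endothelial cells and 29.8% in smooth muscle cells. Serpinb6a was spread over fibroblasts (39.6%), cardiomyocytes (26.0%) and macrophages (26.0%), as was Serpinb9 over cardiomyocytes (33.2%), fibroblasts (21.7%), macrophages (17.8%) and endothelial cells (15.3%). These shares depend on how many cells of each class were caught.

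In CPM, Serping1 was highest in epicardial cells, at 1669 and 4190 CPM in Control tissue-2 and tissue-3 and at 3428, 2080 and 3420 CPM in the YAP5SA libraries, with 27 to 110 cells each. The genotypes overlapped there. In smooth muscle cells Serpini1 stood at 310.8, 110.3 and 218.4 CPM in the Control libraries and at 163.4, 134.3 and 65.9 in the YAP5SA libraries, on 4 to 52 UMIs a library, and the genotypes overlapped.

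**Figure D4:**
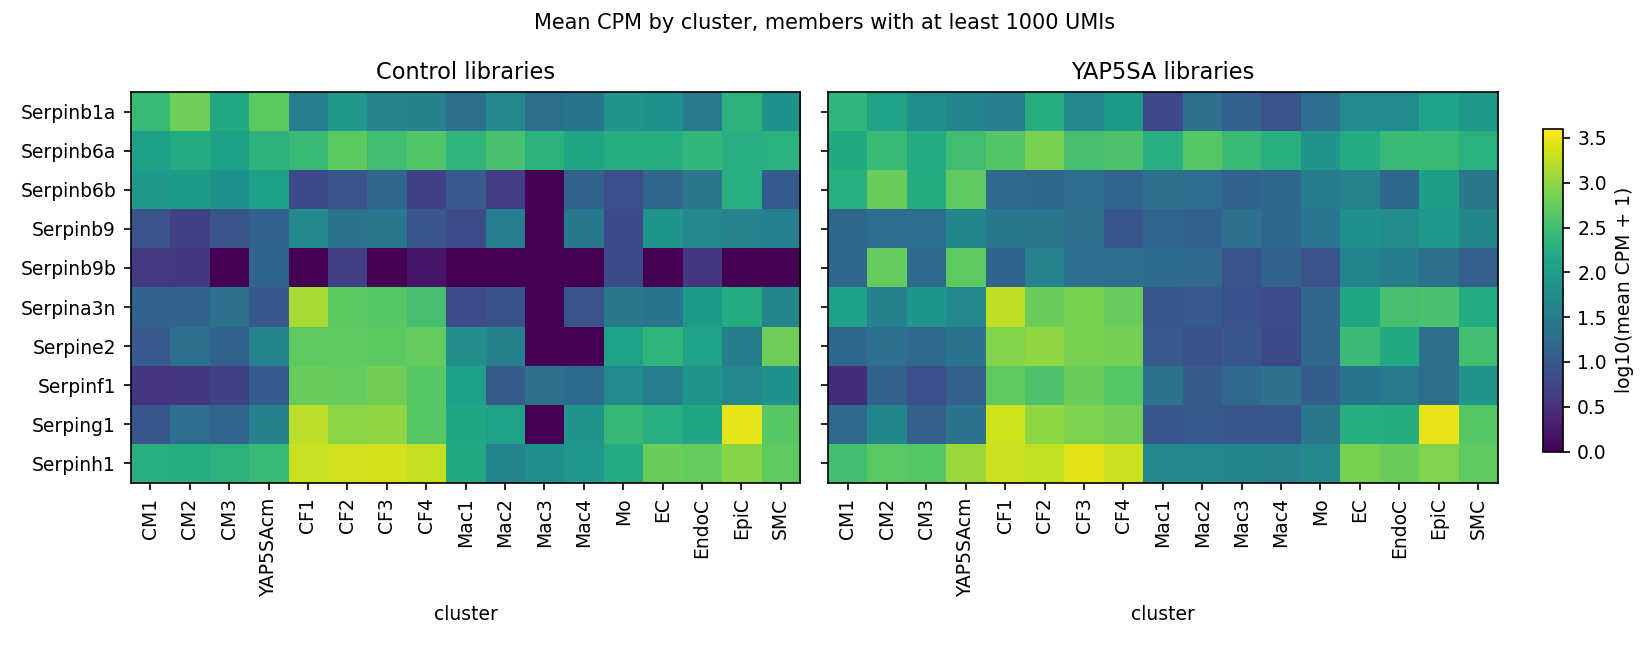
Mean unscaled CPM (colour, log10 of the mean plus 1) of 10 serpins with at least 1000 UMIs, in rows, by authors' cluster, in columns, over the Control libraries (left) and the YAP5SA libraries (right) with at least 10 cells. Among the cardiomyocyte clusters Serpinb9b is brightest in CM2 and YAP5SAcm of the YAP5SA libraries, Serping1 is brightest in EpiC, and Serpinh1, Serpine2, Serpinf1 and Serpina3n are bright in CF1 to CF4.

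The rarest members gave little to compare. Serpinb2 held 103 UMIs in YAP5SA CF2 fibroblasts, 96 of them in YAP5SA tissue-2, and 0 in Control CF2 fibroblasts. It was picked out after its values were seen. Serpinb10 held 41 and 42 UMIs in macrophages of the YAP5SA tissue libraries and 0 in those of YAP5SA enriched and of the Control libraries. The naming scheme of YAP5SA enriched is not that of the YAP5SA tissue libraries, and the part of annotation in these values was not tested. Serpinb12 held 17 UMIs and Serpinb7 10 UMIs, all in YAP5SA libraries, 15 and 9 of them in macrophages. The YAP5SA macrophages held 12243030 UMIs in all and the Control macrophages 824572. At so few UMIs, 0 in Control macrophages is therefore no sign of a genotype difference. The liver-type genes Serpina1b, Serpina1d and Serpina1e held 43, 5 and 8 UMIs over the whole series, and Serpinc1, which encodes antithrombin, 12.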

How the data were processed

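Drop-seq counts 3′ ends of transcripts per cell, so no length correction was made and levels of different genes are compared only loosely. The authors deposited UMI counts per feature and cell with their cluster names. Picard, STAR and Seurat 2.3.4 were used, per the submitters' processing notes, and the genome build and annotation are not given in the sources used here. Their scaled table was left aside. Joined gene names in 4 libraries (858 names) were merged into 643 families, and 1205 features seen under 1 naming alone, Serpina3k among them, were not tested. 1 member is not reported here and is left out of the counts of members. After merging, 31 other member features remained. Here, counts were summed per library and class or cluster with at least 10 cells, and tested with edgeR 4.0.16 (R 4.3.3, TMM, filterByExpr, robust quasi-likelihood, preparation and genotype as terms) with Benjamini-Hochberg adjustment over all genes tested. In clusters the preparation term was used only where both genotypes had both preparations. DESeq2 1.42.0 served as an alternative. The script was tested on simulated data. Intervals are exact at 95%. Where a group held 0 UMIs, 3 were used as its limit. Both cover counting error only. No doublet caller was run. Named were the members that passed in a class or cluster and the 3 most abundant of those reported in each class, and the 3 partners with the smallest p that passed in each list. Members and lists were chosen with earlier results of these data known. The YAP5SA tissue libraries are numbered 1 and 2 in the deposited counts and 2 and 3 in the labels.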

Additional observations from a re-analysis of the deposited data

Results flagged for a closer look

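For 4 values the test of the difference found a genotype effect in cardiomyocytes that departed from that of a second class. Serpinh1 exceeded macrophages by 2.14 and endothelial cells by 1.22 on the log2 scale. Its scaled CPM was higher in 3 of 3 YAP5SA libraries than in every Control library in cardiomyocytes, while in macrophages both Control libraries lay above the YAP5SA libraries and in endothelial cells the genotypes overlapped.

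Serpinb9 exceeded fibroblasts by 1.78. Serping1, at a log2 fold change of 0.13 in cardiomyocytes and -3.13 in macrophages, differed by 2.74 in that test. In macrophages 1 Control library, tissue-3, stood at 232.0 scaled CPM and the other at 4.54. The groups held 3 libraries or fewer per genotype, too few for a search for outlying libraries.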

How the results depend on the processing

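In cardiomyocytes the 3 calls became 6 on library totals alone, 5 under DESeq2, 0 in the tissue libraries alone, 0 without the cells of YAP5SAcm and 1 in the 4 libraries with joined names, an alternative chosen after seeing the data. In the remaining alternatives that kept all libraries, the count was 2 to 4. Leaving out 1 library gave 0 to 10. In fibroblasts the single call became 0 under DESeq2, 0 in tissue libraries alone and 0 with at least 30 cells, 2 without a filter and 2 in libraries with joined names, and 0 to 2 with 1 library left out. In macrophages 0 became 3 without a filter and 3 in libraries with joined names, and 0 to 3 with 1 library left out. In endothelial cells 0 became 2 without a filter, and 0 to 3 with 1 library left out. In single clusters 4 became 1 to 26, the highest without Control tissue-2. The differences between classes, 1, 2 and 1, became 3, 5 and 4 on library totals, and 0 to 2 (fibroblasts), 0 to 4 (macrophages) and 0 to 2 (endothelial cells) with 1 library left out. No called member changed direction in any alternative run. Apart from fewer libraries or cells, the cause was not tested. For alternatives whose count over all genes is not given below, the counts of members are no result about the members. Over all genes, the count called in cardiomyocytes was 2897, and it ran from 203 to 4606 with 1 library left out, to 4540 on library totals and to 17 without YAP5SAcm; in fibroblasts it was 239 and ran from 0 to 1161 with 1 library left out. No fit with a replicate block was made. No paired analysis was possible because the numbers of the YAP5SA tissue libraries differ between the deposited counts and the labels. Depth limits the rare members: Mac3 had 1 Control library with at least 10 cells and was not tested.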
